A study of Mus musculus with 4 samples.

Results

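The Notch genes examined were the receptors Notch1, Notch2, Notch3 and Notch4, the ligands Dll1, Dll3 and Jag1, the glycosyltransferase Lfng, and Hes1 and Hey1, transcription factors switched on by the pathway. They are 10 of the 37310 genes in the deposited table, found by matching Ensembl identifiers to these symbols. The set was chosen because Lfng had one of the lowest fold changes of the table, at rank 8 from the lowest of 14510 genes tested. The fold change of Lfng is therefore given as a description with no test, and it supports nothing else here.

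The samples were mouse embryonic stem cells (mESCs) of the JM8 line, from C57BL6/N mice, grown without feeder cells in 2i + LIF medium. This medium holds the cells in the naive state with LIF and with inhibitors of Mek (PD0325901, 1 µM) and Gsk3 (CHIR99021, 3 µM), and all libraries share it. Messenger RNA was sequenced from 2 wild-type libraries and 2 libraries labelled Bmal1-/-, from cells in which CRISPR/Cas9 had disrupted exon 5 of the clock gene Bmal1. The Bmal1-/- cells were 1 clone and the wild-type cells its parental line, so that a difference between clones cannot be told apart from the genotype. Replicates are described as biological, with no source beyond the line, and p-values measure the spread between these libraries. Reads on genes numbered from 21504265 to 23329034 per library. Bmal1 itself, listed as Arntl, still had normalized read counts of 556 and 590 under the Bmal1-/- label, against 678 and 733 in the wild type (log2 fold change −0.30, limma adjusted p = 0.0011). Its mRNA level alone therefore does not identify the genotype, and libraries are named by their labels. For the clone it characterised, the paper reports frameshift indels in both alleles. It also reports Bmal1 mRNA as not detected by RT-qPCR, and no detectable protein by Western blot. Pluripotency markers were abundant, the 7 genes being Pou5f1, Nanog, Zfp42, Esrrb, Klf4, Tfcp2l1 and Tbx3. Their normalized read counts summed to 106274 and 103707 in the wild type against 113645 and 115467 under the Bmal1-/- label. At a limma adjusted p under 0.05, 4 were higher and 3 lower, and 52.6% of all genes tested passed. Pou5f1 and Zfp42, among the lower, did not pass (limma adjusted p = 0.72 and 0.81) once the trend over exon length, described below, was removed.

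Notch signalling passes between neighbouring cells. A Delta-like (Dll) or Jagged (Jag) ligand on one cell binds a Notch receptor on the next, the receptor is cut by an Adam protease and by gamma-secretase, and its freed intracellular part joins the DNA-binding protein Rbpj and Mastermind-like (Maml) coactivators to switch on Hes and Hey repressors. Fringe enzymes extend the O-fucose sugars on the receptor. Lfng (Lunatic fringe) is one of them, and in this way it biases the receptor towards Delta-like over Jagged ligands. The pathway is known for its role in the exit of mESCs towards the neural fate and, through the oscillation of Lfng, Hes7 and Dll genes, in the segmentation clock of presomitic mesoderm.

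The 3 receptors Notch1, Notch2 and Notch3 were higher in the libraries labelled Bmal1-/-, whereas Notch4, Jag1 and Lfng were lower, and Hes1, Hey1 and Dll3 did not pass the test. Values are TMM-normalized read counts, that is, gene reads rescaled to make the libraries comparable. Differences were fitted with limma on log2(value + 1), keeping genes whose mean over the libraries was 10 or more, and a gene was said to change with an adjusted p-value under 0.05 over all genes tested. This filter was passed by 9 of the 10 genes, and Dll1 was left out. Leaving Lfng aside, 5 of the 8 genes tested changed, 3 upwards and 2 downwards, with a median log2 fold change of −0.05. Among all 14510 genes tested, 52.6% changed by the same rule (24% higher and 28.6% lower, median −0.03), so the members' count stands near the background. The balance of directions over all genes depends on scaling, with 3488 higher and 4151 lower as deposited, and 4200 higher and 3194 lower with equal library totals. Of the 8, none was past 2-fold with that p-value, as 7.21% of all genes tested were (5.75% higher and 1.45% lower). The wild-type and Bmal1-/- values did not overlap for 6 of the 8 tested members other than Lfng, 3 higher and 3 lower, against 76% of all genes tested (34.6% higher and 41.4% lower).

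**Figure D1:**
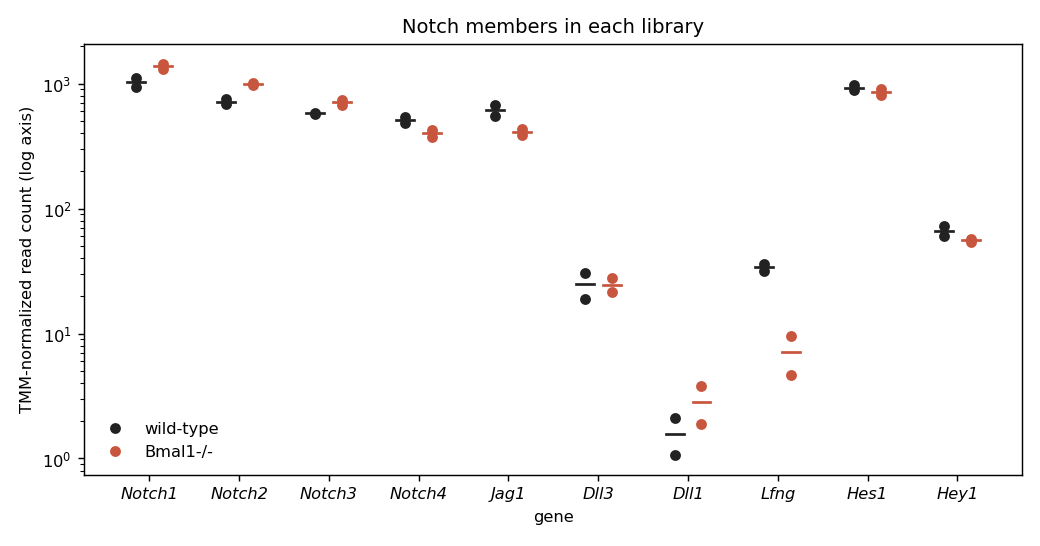
Normalized read count (log axis) of each of the 10 Notch genes, with 1 point per library and a bar at the mean of the 2 libraries of a label, wild-type in black and Bmal1-/- in red. Lfng lies between 31.9 and 35.8 in wild-type libraries and between 4.70 and 9.54 in the others, whereas the receptors, Jag1 and Hes1 stay between 377 and 1449 in every library.

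The receptors are large single-pass proteins cut at the membrane when ligand binds. Notch1 (ENSMUSG00000026923, mm9 chromosome 2 from 26313423 to 26372183) had normalized read counts of 1103 and 945 in the wild type against 1449 and 1302 in those labelled Bmal1-/-. Both Bmal1-/- libraries lay above both wild-type libraries, and the log2 fold change was 0.43 (standard error 0.07, limma adjusted p = 2.6e-05). Notch2 (ENSMUSG00000027878, chromosome 3 from 97817461 to 97954290) rose from 749 and 690 to 1010 and 975. Its groups also stood apart, by a log2 fold change of 0.46 (standard error 0.06, limma adjusted p = 3.4e-06). For Notch3 (ENSMUSG00000038146, chromosome 17 from 32257765 to 32303825) the values were 585 and 577 against 746 and 673. The log2 fold change of 0.29 (standard error 0.07, limma adjusted p = 0.0017) came from libraries that did not overlap, but without Bmal1-/- replicate 1 it was 0.21 with an adjusted p of 0.064. Notch4, a receptor known from blood vessels, went the other way. Its gene (ENSMUSG00000015468, chromosome 17 from 34701213 to 34725448) had 544 and 483 in the wild type against 428 and 377 in the others. Both Bmal1-/- values were below both wild-type values, a log2 fold change of −0.35 (standard error 0.08, limma adjusted p = 0.0016). Notch4 missed the threshold without Bmal1-/- replicate 2 (−0.26, adjusted p = 0.054) and with no filter on low values (−0.35, adjusted p = 0.075).

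Gene length moved with these differences. The genes tested were split by exon length into 5 classes of near equal size. All 4 receptors belong to the longest class, 2901 genes with at least 5936 bases of exon, where the median log2 fold change was 0.13 and 67.4% of fold changes were positive. In the shortest class the median was −0.15. Wild-type replicates differed by length too, by a median of 0.05 (log2, replicate 1 minus replicate 2) in the longest class and −0.04 in the shortest. The same difference between Bmal1-/- replicates ran the other way, at −0.010 in the longest class and 0.023 in the shortest. When a trend over exon length was taken out of each library, a setting chosen after seeing the data, Notch1 came to 0.14 (standard error 0.06, adjusted p = 0.068) and Notch3 to 0.16 (standard error 0.07, adjusted p = 0.067). Neither then passed the test. Notch2 still did, at 0.26 (adjusted p = 0.0011), and Notch4 moved further from 0, to −0.48 (adjusted p = 4.2e-05). On this setting 3 of 8 members changed, against 48% of all genes tested. What lies behind the relation to length was not tested.

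**Figure D2:**
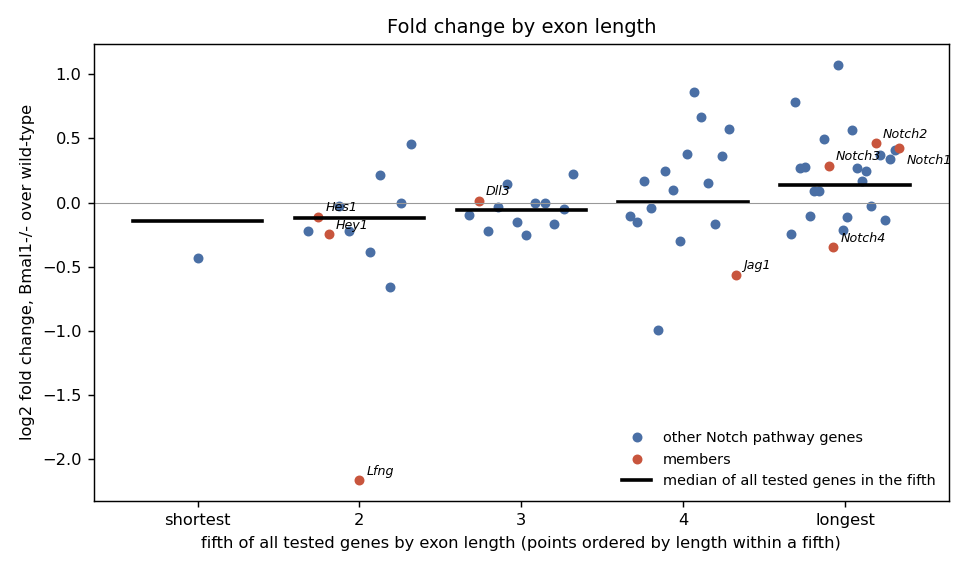
Log2 fold change (Bmal1-/- over wild-type) of members in red and other Notch pathway genes in blue, arranged by 5 classes of exon length, with black lines at the median of all tested genes in each class. The medians climb from −0.15 in the shortest class to 0.13 in the longest, and Notch4 and Jag1 lie below the line of their class.

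Within the receptor family the proportions shifted. The value per kilobase of exon allows receptors to be set against each other, and a share within one library does not depend on the scaling. Notch4 made up 23.3% and 22.7% of the summed receptor value per kilobase in the wild type against 15.5% and 14.9% in those labelled Bmal1-/-. Notch1 went from 26.8% and 25.2% to 29.6% and 29.1%, and Notch2 from 24.7% and 24.9% to 28.0% and 29.5%. Shares of Notch3 overlapped between the labels, from 25.2% to 27.2% and from 26.6% to 27.0%. These shares still carry the relation to exon length. With that trend removed, Notch1 no longer exceeded Notch3 in log2 fold change (0.14 against 0.16). Summed over the 4 receptors, the level per kilobase was 289 and 264 in the wild type against 344 and 315 in the others.

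Of the member ligands, only Jag1 passed the test. Jag1 (ENSMUSG00000027276, chromosome 2 from 136907192 to 136942380) encodes a Jagged ligand and fell from 672 and 553 to 434 and 391. The groups did not overlap, at a log2 fold change of −0.57 (standard error 0.09, limma adjusted p = 1.8e-05). Its exons, at 5827 bases, fall in the second longest class, where the median of all genes was 0.01, and with the length trend removed the log2 fold change was −0.61. Over the 15 other settings it lay between −0.70 and −0.43, with an adjusted p of at most 0.039. Jag2, the other Jagged ligand and not a member, had 302 and 297 against 339 and 363 (log2 fold change 0.23, standard error 0.09, limma adjusted p = 0.035), a call lost in DESeq2, with no filter, and with any library but wild-type replicate 1 left out. Jag1 accounted for 58.5% and 53.0% of the summed ligand value per kilobase in wild-type libraries and for 44.7% and 40.1% in the others, while Jag2 went from 37.8% and 40.9% to 50.2% and 53.6%.

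The Delta-like ligands were scarce in all libraries. Dll3 (ENSMUSG00000003436, chromosome 7 from 29076673 to 29087257), an atypical ligand that acts within the cell that makes it, had 19.0 and 30.8 in the wild type against 21.6 and 27.7 in the others. The groups overlapped, and the log2 fold change of 0.01 had a 95% interval from −0.62 to 0.65, so that a change of up to about that size was not detectable at this depth. Dll1 (ENSMUSG00000014773, chromosome 17 from 15504318 to 15513836), the ligand of presomitic mesoderm and neural progenitors, had 2 and 1 reads in the wild type against 2 and 4 in the others. Dll4, a ligand of blood vessels and not a member, had at most 2 reads. With so few reads no fold change is given for either.

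**Figure D3:**
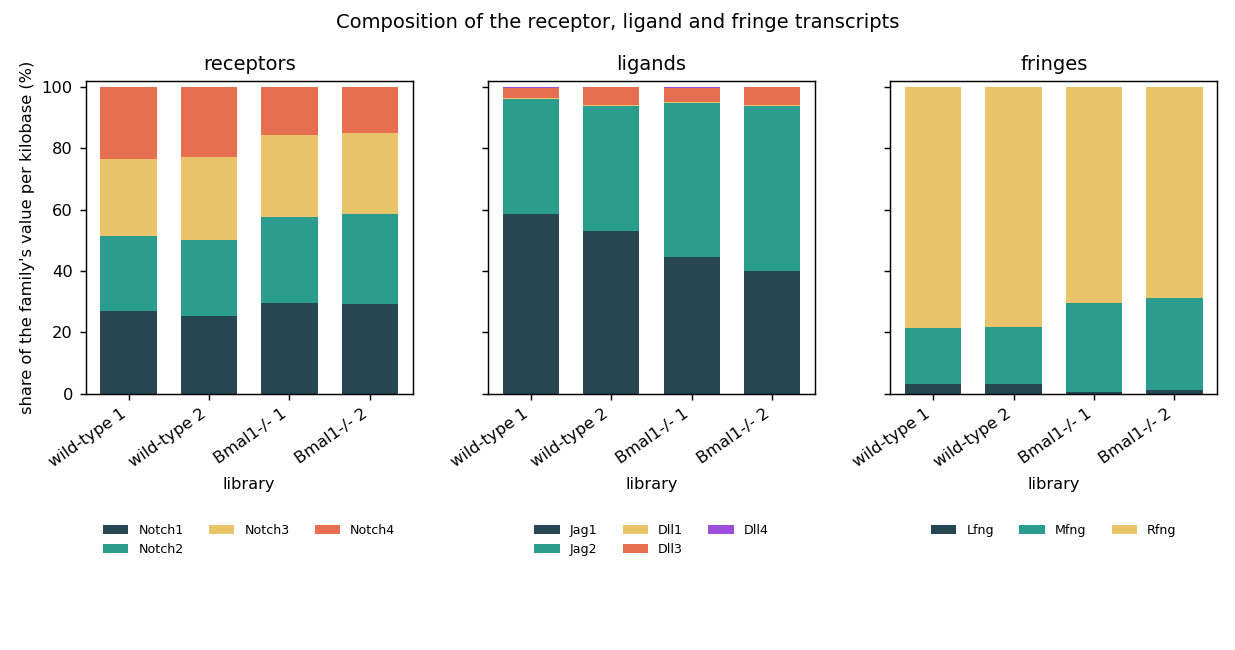
Share (%) of each gene in the summed value per kilobase of exon of its family, for the 4 receptors, the 5 ligands and the 3 fringe enzymes, with 1 bar per library. Notch4 takes a smaller part of the receptors, Jag1 a smaller part of the ligands and Mfng a larger part of the fringes in both Bmal1-/- libraries.

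Lfng (ENSMUSG00000029570, mm9 chromosome 5 from 141083295 to 141091497) had normalized read counts of 35.8 and 31.9 in wild-type libraries, from 34 and 30 reads, and of 4.70 and 9.54 in the libraries labelled Bmal1-/-, from 5 and 10 reads. The groups stood well apart, and the Bmal1-/- mean was 4.76-fold lower than the wild-type mean. The log2 fold change was −2.17 (standard error 0.37), from −1.72 without Bmal1-/- replicate 1 to −2.61 without Bmal1-/- replicate 2. This range does not bound the true change, because the reads are few and Lfng was chosen for its low fold change. Quantile normalization gave −2.91 and a pseudocount of 10 gave −1.37. With the length trend removed it was −2.06.

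Lfng is the least abundant of the 3 fringe enzymes in these cells. It made up 3.19% and 3.16% of their summed value per kilobase in the wild type against 0.493% and 1.09% in the others. Rfng (Radical fringe), which held most of the family, had 963 and 859 in the wild type against 732 and 659 in the others. It fell, with a log2 fold change of −0.39 (standard error 0.07, limma adjusted p = 9.6e-05). Mfng (Manic fringe) went the opposite way, with 255 and 234 in the wild type against 344 and 328 (log2 fold change 0.46, standard error 0.09, limma adjusted p = 3.4e-04), and its share rose from 18.2% and 18.6% to 29.0% and 30.1%. Rfng and Mfng kept their directions and their side of the threshold in the 15 other settings, the removed length trend included, but neither passes 2-fold.

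The genes around Lfng were read in the same fit. The 3 nearest genes tested on either side on chromosome 5 had log2 fold changes between −0.25 and 0.15. The closest, Ttyh3, begins 5.04 kb after the end of Lfng and had 0.15 (standard error 0.09, limma adjusted p = 0.17). It came to 0.27 (adjusted p = 0.0098) without wild-type replicate 1 and to 0.018 without wild-type replicate 2. Beyond it, Iqce had −0.18 (adjusted p = 0.074, and −0.42 with adjusted p = 1.5e-04 with the length trend removed) and Baat1 −0.19 (adjusted p = 0.030, a call lost in 7 other settings). Before Lfng, Chst12 had −0.20 (adjusted p = 0.17, and −0.30 with adjusted p = 0.041 under quantile normalization), Eif3b −0.25 (adjusted p = 1.1e-05) and Snx8 −0.06 (adjusted p = 0.47). No annotated gene overlaps Lfng, Notch2, Jag1, Dll3, Hes1 or Hey1, and the antisense genes that overlap Notch1, Notch3, Notch4 and Dll1 had mean values of at most 6.11.

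The promoter sequences of Lfng and of the members that changed also with the length trend removed (Notch2, Notch4 and Jag1) are shown for the 250 bases before the start site, from RefSeq (GRCm38.p6). Of the 10 members, 8 matched by symbol, and Hes1 and Hey1 are not among them. The motifs searched on both strands were CACGTG, the E-box that Bmal1 binds with Clock, TGGGAA, the core of the site of Rbpj, and CACNAG, the N box bound by Hes repressors. Capitals mark the matches, and each sequence runs 5′ to 3′ on the strand of the gene.
Lfng (chr5:140607091-140607340, + strand): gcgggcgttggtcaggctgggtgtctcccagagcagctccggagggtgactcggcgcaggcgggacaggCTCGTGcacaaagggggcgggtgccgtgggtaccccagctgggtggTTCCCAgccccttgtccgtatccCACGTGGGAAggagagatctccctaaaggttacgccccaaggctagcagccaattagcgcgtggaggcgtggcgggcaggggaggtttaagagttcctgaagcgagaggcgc
Notch2 (chr3:98013288-98013537, + strand): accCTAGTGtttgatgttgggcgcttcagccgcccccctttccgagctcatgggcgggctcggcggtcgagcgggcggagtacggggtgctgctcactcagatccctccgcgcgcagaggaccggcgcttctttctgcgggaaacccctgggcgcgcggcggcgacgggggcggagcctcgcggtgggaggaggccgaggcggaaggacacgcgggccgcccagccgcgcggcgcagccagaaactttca
Notch4 (chr17:34564045-34564294, + strand): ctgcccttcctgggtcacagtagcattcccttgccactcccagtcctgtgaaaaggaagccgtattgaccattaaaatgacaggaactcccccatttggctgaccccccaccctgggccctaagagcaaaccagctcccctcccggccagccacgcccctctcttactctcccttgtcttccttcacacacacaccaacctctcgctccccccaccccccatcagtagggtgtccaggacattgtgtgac
Jag1 (chr2:137116521-137116770, − strand): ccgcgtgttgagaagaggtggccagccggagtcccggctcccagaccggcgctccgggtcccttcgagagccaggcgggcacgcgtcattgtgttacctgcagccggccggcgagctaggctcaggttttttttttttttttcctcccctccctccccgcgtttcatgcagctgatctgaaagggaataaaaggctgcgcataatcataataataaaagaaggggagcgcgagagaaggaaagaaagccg
Lfng was the only one of the 8 members whose windows held CACGTG, at base −112, or TGGGAA, at bases −135 and −108. The E-box and the second Rbpj core overlap, as the run CACGTGGGAA. Of 32851 mouse promoter windows of this length, 6.02% hold CACGTG, 21.6% hold TGGGAA and 0.0731% (24 windows) hold the joined run on either strand, the latter searched for after it was seen here. CACNAG was found in Lfng, Notch1, Notch2 and Notch3 and is in 36.7% of all windows. The windows of Notch4, Jag1, Dll1 and Dll3 held none of these motifs. A relation between motifs and fold changes was not tested. A match describes letters and not a bound site.

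Hes1 and Hey1 encode the repressors through which the pathway acts on other genes. Hes1 (ENSMUSG00000022528, chromosome 16 from 30064470 to 30067882) had 883 and 974 in the wild type against 819 and 900 in the others, and the groups overlapped. The log2 fold change was −0.11 (95% interval −0.25 to 0.03, limma adjusted p = 0.17), and 0.01 with the length trend removed. Without wild-type replicate 1 it was −0.18 with an adjusted p of 0.023. For Hey1 (ENSMUSG00000040289, chromosome 3 from 8663362 to 8667039) the values were 72.7 and 60.5 against 57.3 and 54.4. These do not overlap, but the log2 fold change of −0.25 (95% interval −0.64 to 0.15, limma adjusted p = 0.29) did not pass the test. It reached −0.48 with an adjusted p of 0.042 under quantile normalization. Of the 7 other Hes and Hey genes, only Hes6 and Hey2 passed the filter and neither passed the test. The remaining 5, Hes5 among them with at most 4 reads, were too low to test. Hes6 had a log2 fold change of −0.22 (adjusted p = 0.070) and Hey2 of 0.22 (adjusted p = 0.57). Nrarp, a target that feeds back on Notch, had 136 and 152 against 133 and 154.

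The members differed widely in level. In wild-type libraries Hes1 had the highest value per kilobase of exon, 456 ± 31.7 (SD, n = 2 libraries), above 77.3% of the genes tested. Jag1 followed at 105 ± 14.4. The receptors Notch3, Notch1, Notch2 and Notch4 lay close together, at 72.2 ± 0.69, 72.0 ± 7.83, 68.5 ± 3.94 and 63.7 ± 5.29, and each overlapped its neighbour in this order. Hey1 (30.2 ± 3.90), Lfng (14.8 ± 1.22), Dll3 (8.65 ± 2.91) and Dll1 (0.376 ± 0.175) came next, each apart from its neighbours. In the libraries labelled Bmal1-/- the order after Hes1 (422 ± 28.1) became Notch1 (96.7 ± 7.35), Notch2 (94.4 ± 2.37), Notch3 (88.2 ± 6.39), Jag1 (70.8 ± 5.22), Notch4 (49.9 ± 4.53) and Hey1 (25.3 ± 0.95). Dll3 (8.56 ± 1.49) then stood above Lfng (3.12 ± 1.499). Between neighbours in this order only Notch1 and Notch2 overlapped, and Notch3 also overlapped Notch1.

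The rest of the pathway was read from 65 further genes, grouped by role. Of the 55 that passed the filter, 30 changed (54.5%, against 52.6% of all genes tested), with 17 higher, 13 lower and a median log2 fold change of −0.00018. With equal library totals 22 were higher and 9 lower. With the length trend removed, 30 changed as well, 14 higher and 16 lower, and 25 of these were called in both with the same sign. Of the 20 genes in the longest class, 10 were higher and 3 lower, and after removal of the trend 6 were higher and 6 lower. Among all genes tested 48% changed after removal, and 67.4% of fold changes in this class were positive before it. The share changed was 71.4% among glycosyltransferases, 63.6% among corepressors, 62.5% in the nuclear complex and 45.5% among regulators of trafficking and stability. It was 50% among proteases, ligand ubiquitin ligases and other ligands, and 0% among other Hes and Hey genes. Each group held 2 to 11 tested genes, and 52.6% of all genes tested changed.

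**Figure D4:**
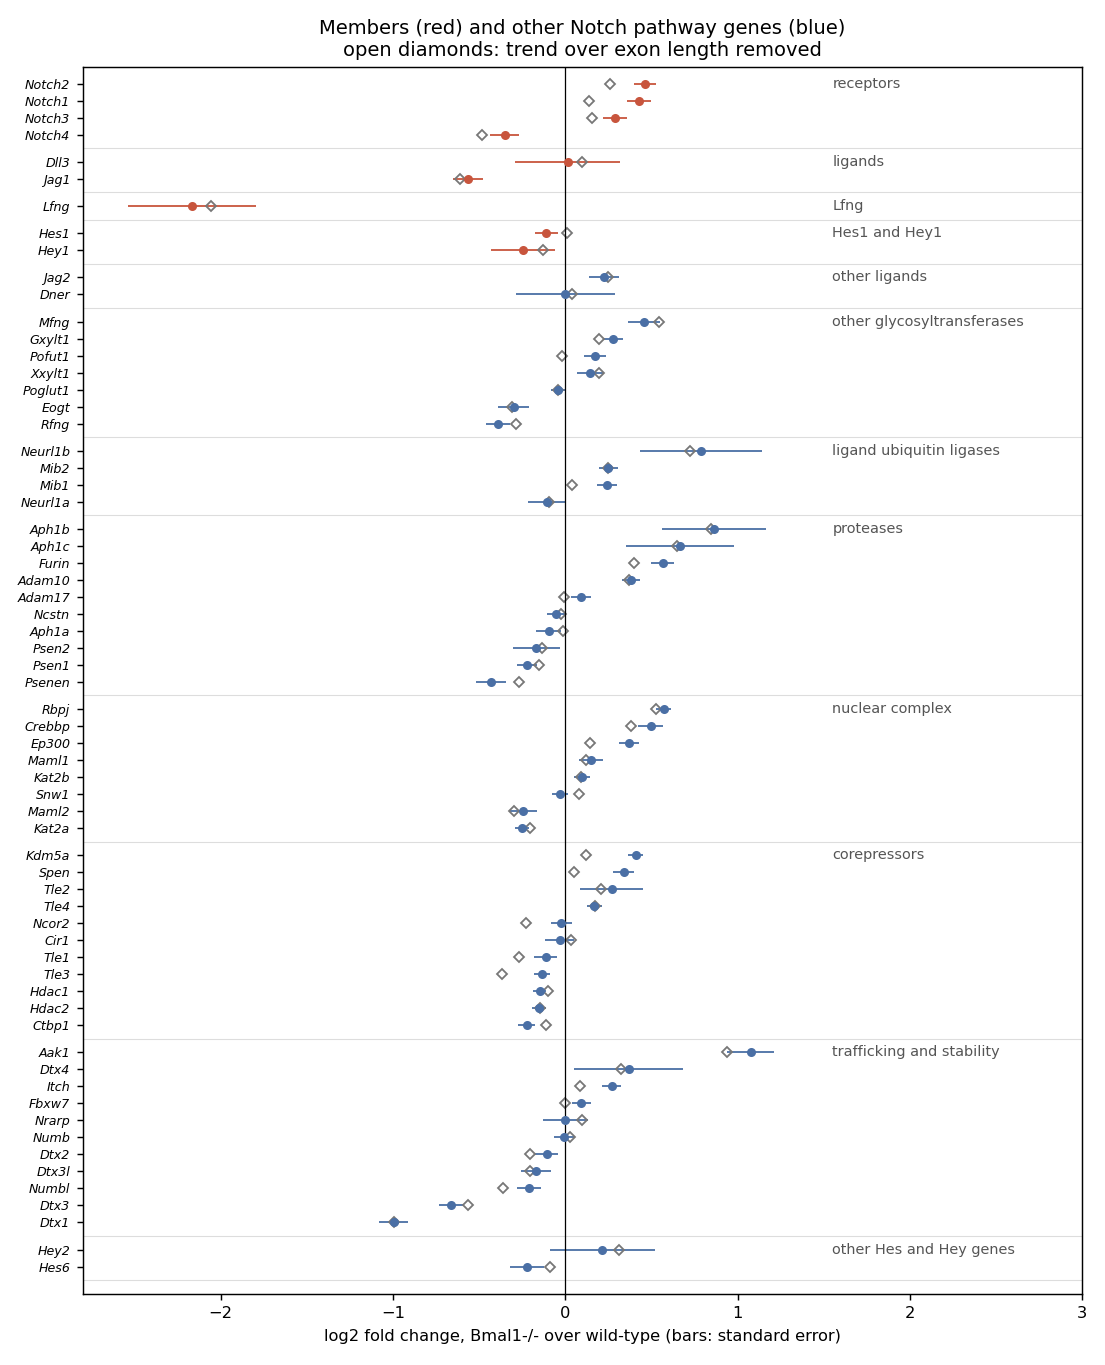
Log2 fold change (Bmal1-/- over wild-type, with the standard error) of members in red and other Notch pathway genes in blue, ordered by role, with open diamonds at the value after the trend over exon length was removed. Lfng stands at −2.17 and Dtx1 at −0.996, and Rbpj, Mfng and Dtx1 keep their sign and their call when the length trend is taken out.

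Rbpj, the DNA-binding protein through which all 4 receptors act, rose, with 2595 and 2547 in the wild type against 3746 and 3891. The log2 fold change came to 0.57 (standard error 0.04, limma adjusted p = 1.2e-09), and 0.53 with the length trend removed. Of the 8 tested genes of the nuclear complex, 3 were higher, 2 lower and 3 did not pass. Crebbp (0.50, adjusted p = 1.1e-05) and Ep300 (0.37, adjusted p = 1.7e-05), related acetyltransferases, were the other higher ones, and Ep300 came to 0.15 (adjusted p = 0.019) with the length trend removed and missed the threshold with no filter (adjusted p = 0.052).

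Of the 10 proteases and subunits that process the receptor, 3 were higher, 2 lower and 5 did not pass. Furin, which cuts the receptor before it reaches the surface, rose from 928 and 805 to 1308 and 1250 (log2 fold change 0.56, standard error 0.06, limma adjusted p = 4.3e-07). Psenen, the smallest gamma-secretase subunit, fell from 469 and 524 to 391 and 345 (−0.43, standard error 0.09, limma adjusted p = 2.6e-04). Aph1b, another subunit, had 16.9 and 14.9 against 26.3 and 33.4 (0.86, standard error 0.30, limma adjusted p = 0.020). Its reads can be shared with the similar Aph1c, and its call was lost in DESeq2, with quantile normalization, with no filter, and without Bmal1-/- replicate 2.

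Among 7 tested glycosyltransferases other than Lfng, 3 were higher and 2 lower, Eogt being the lower one besides Rfng (−0.30, adjusted p = 0.0066). The call of Eogt was lost without Bmal1-/- replicate 1 (−0.23, adjusted p = 0.10) and in DESeq2 (−0.27, adjusted p = 0.13). Of 4 ubiquitin ligases that act on ligands, Mib1 (0.24, adjusted p = 0.0018) and Mib2 (0.25, adjusted p = 6.3e-04) were higher, and Mib1 came to 0.04 (adjusted p = 0.55) with the length trend removed and missed the threshold with no filter (adjusted p = 0.12). Corepressors had 3 higher, 4 lower and 4 of 11 not passing, with log2 fold changes of 0.41 for Kdm5a, 0.34 for Spen and −0.22 for Ctbp1. Without the length trend Spen (0.05, adjusted p = 0.41) and Ctbp1 (−0.11, adjusted p = 0.059) no longer passed, and Kdm5a was at 0.12 (adjusted p = 0.034). Spen also missed the threshold with no filter (adjusted p = 0.068).

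The genes listed as regulators of receptor trafficking and stability held the largest changes of the wider list. Dtx1 (Deltex), a ubiquitin ligase that binds the intracellular part of Notch, fell, with 681 and 721 in the wild type against 384 and 320. The log2 fold change came to −0.996 (standard error 0.08, limma adjusted p = 5.2e-09), and it was −0.99 with the length trend removed. Its relative Dtx3 fell from 594 and 610 to 380 and 380 (−0.66, standard error 0.07, limma adjusted p = 2.6e-07). Aak1, a kinase of endocytic adaptors that is known to stabilise activated Notch rather than to oppose it, rose from 200 and 133 to 332 and 359 (1.08, standard error 0.14, limma adjusted p = 1.5e-06), the only gene of the list past 2-fold, and was between 0.78 and 1.37 over the alternatives. In all, 2 of the 11 genes of this list were higher, 3 lower and 6 did not pass, Numb among them.

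Markers of other cell types that use Notch were read in the same libraries. Presomitic mesoderm genes (T, Tbx6, Msgn1, Mesp1, Mesp2, Ripply2 and Uncx) summed to between 154 and 186 in wild-type libraries and between 150 and 157 in the others. Most of this was T, at 163 and 135 against 119 and 122, which did not pass the test (adjusted p = 0.071). Mesp2 had 10.53 and 5.31 against 14.1 and 19.1 (log2 fold change 1.03, standard error 0.42). Its wild-type mean of 7.92 was under the filter of 10, which it passed only through the Bmal1-/- libraries. Its values are therefore a description only. Msgn1, not tested, had 1 and 0 reads against 5 and 8. Of the others not tested, Tbx6 had 7 and 10 reads against 8 and 3, and Uncx 1 and 2 against 3 and 6. Mesp1 and Ripply2 were at or under 3 reads in every library. Of the genes listed for the neural fate, Tubb3 was lower, at 2785 and 2512 against 1192 and 1088. Pax6 had 45.3 and 24.4 against 9.39 and 9.54. Its Bmal1-/- mean of 9.46 was under the filter of 10, which it passed only through the wild-type libraries, so its values are a description only. Nes (limma adjusted p = 0.25) and Olig2 (limma adjusted p = 0.14) did not pass. With the length trend removed Nes came to −0.15 (limma adjusted p = 0.035). Neurog2 and Fabp7 were at or under 3 reads in every library. Endothelial genes summed to 1957 and 2013 against 3961 and 3996, carried by Pecam1 (1767 and 1798 against 2885 and 3028), a gene that mESCs express, and by Tie1 (65.3 and 71.2 against 918 and 819). Tek, at 118 and 142 against 147 and 141, did not pass the test (limma adjusted p = 0.37), and Kdr was too low for it. Cdh5 and Emcn were at or under 3 reads in every library. Primitive endoderm genes summed to between 172 and 185 under either label. Of the 6, Sox17, at 10.53 and 14.9 against 32.9 and 30.5, and Gata4, at 69.5 and 85.0 against 120.2 and 106.8, were higher. Sox7 had 46.4 and 52.1 against 5.64 and 12.4. It too passed the filter only through the wild-type libraries (Bmal1-/- mean 9.02), so its values are a description only. Pdgfra did not pass the test, and Gata6 and Foxa2 were too low for it. In bulk samples fewer cells of a type and less RNA per cell cannot be told apart, and the part of these markers in the Notch values was not tested.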

How the data were processed

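Messenger RNA from 2 wild-type and 2 Bmal1-/- JM8 cultures was sequenced. According to the labels and the study's methods the authors used bcl2fastq 2.18.0.12, cutadapt 1.9.1 and STAR 2.5.2b with the mouse genome mm9, and scaled gene counts with TMM in NOISeq; the read counter and annotation are not given in the sources used here. The deposited values are a normalized signal per gene and library. Whole reads were recovered for 100% of values (tolerance 0.01 of a read), and 3 reads correspond to values of 2.82 to 3.19.

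The members and the gene lists were chosen with earlier results of these data known, and the lists were written from general knowledge. All fits used limma 3.58.1 in R 4.3.3 (intensity trend; prior degrees of freedom 18.1) with log2(value + 1) as input, for the 14510 genes whose mean was 10 or more, 2 libraries against 2, with Benjamini-Hochberg adjustment over all genes. A fold change on this scale understates that of low genes. Intervals are 95% intervals of limma.

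Alternatives were other filters, pseudocounts of 0.5 and 10, median-ratio, total and quantile scaling, a replicate block, each library left out, edgeR 4.0.16 and DESeq2 1.42.0 on whole reads, and, added after seeing the data, removal of a lowess trend over exon length. The tests were tried on simulated data. Coordinates and exon lengths (union of exons) come from the NCBIM37 (mm9) GENCODE annotation. Named genes are all members, in each role group up to 3 genes with the largest absolute log2 fold change among those changed, Mfng, Rfng, Rbpj, Dll4, Jag2 and Hes5, the neighbours of a member past 2-fold, the 5 genes nearest to Lfng in profile, and marker genes. Hes6, Hey2, Nrarp, Numb and Aph1c are named outside this rule, after their values were seen. A marker gene, and the summed level of its list, are not reported here.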

Additional observations from a re-analysis of the deposited data

How the results depend on the processing

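Jag1 and Notch4 were lower and Notch1, Notch2 and Notch3 higher in every setting that tested them. With all libraries kept, Jag1 and Notch2 passed in each setting apart from the 2-fold threshold. The direction of Lfng was fixed by the choice of the set, and its log2 fold change, given without a test, lay between −2.91 and −1.37 over the alternatives. The number of members changed (5 of 8) was 3 with the length trend removed and 0 with a 2-fold threshold besides the adjusted p-value. With that threshold 1 gene of the wider list and 1046 of all genes passed, in place of 30 and 7639. On whole reads, edgeR called 7682 of all genes and DESeq2 5226. Dll3 came to −0.27 with quantile normalization and lay between −0.32 and 0.35 with a library left out. With the length trend removed Hes1 came to 0.0089 and Snx8 to 0.029, and Snx8 lay between −0.15 and 0.028 with a library left out. The cause of these changes was not tested. Per kilobase of the longest transcript, in place of the union of exons, Hes1 had 632, Notch1 108 and Notch4 77.9 in wild-type libraries, so the order of the receptors depends on the length used. The labels number the replicates in the same way in both groups, but do not say whether a number marks a shared batch. Differences between replicates correlated at −0.02 across genes, which cannot settle this because counting noise enters them. With the replicate block 5 members and 7949 of all genes changed. With reads of 5 and 10 in the Bmal1-/- libraries, depth limits Lfng, and the Dll1, Dll4 and Hes5 reads are too few for a comparison.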

Other observations

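Among 10486 genes with a mean of at least 100, the 5 whose log2 profile over the 4 libraries, centred on its mean, lay nearest to that of Lfng were Rasgrp2, Rragb, Ldhb, Lck and Vim, with Euclidean distances from 0.65 to 0.81. The search for profiles near that of Lfng fixed in advance that they would be lower in the libraries labelled Bmal1-/-. Their log2 fold changes, between −1.83 and −1.67, are therefore a description only. Rasgrp2, a Ras and Rap exchange factor, had 559 and 591 in the wild type against 156 and 179 in the others. Ldhb, a lactate dehydrogenase subunit, had 4457 and 4630 against 1246 and 1305, and Vim, the intermediate filament vimentin, 3626 and 3458 against 1117 and 1106. The likeness rests on 4 libraries and mainly on the size of the difference between labels.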
